A study of Mus musculus with 6 samples.

Results

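The ErbB receptor family, its neuregulin ligands and the Lrig regulators were followed across the cell classes of mouse brain lesions driven by Foxr2. The 9 genes Egfr, Erbb2, Erbb3, Erbb4, Nrg1, Nrg2, Nrg3, Lrig1 and Lrig3 were taken by symbol from the features of the libraries and all 9 were found, among 32285 mouse genes and 13 vector features. Nuclei of C57BL/6J brain lesions were profiled by single-nucleus multiome sequencing, which reads RNA as unique molecular identifiers (UMIs) and open chromatin as ATAC counts in peaks from the same nucleus. In every lesion Foxr2 was overexpressed, with a GFP reporter, from a transposon plasmid under the ubiquitous CAG promoter that had been electroporated in utero into the ganglionic eminence of mid-gestation embryos. The Foxr2 p53LOF lesion also received Cas9 with a guide against p53, and the Foxr2 alone lesions (replicates 1 and 2) did not. The study described high-grade tumors with p53 loss, and nonproliferative lesions with Foxr2 alone. No untreated brain and no control without Foxr2 entered the comparisons, and the age of the animals at collection is not in the labels. Each library came from a single lesion, so genotype and library cannot be told apart. Counts were used for Foxr2 p53LOF and for Foxr2 alone replicate 1, and of replicate 2 the peak list and the barcodes alone (counts not analysed here).

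The ErbB receptors are receptor tyrosine kinases that signal as dimers through the Ras and ERK cascade. EGFR binds the EGF-like ligands, ERBB3 and ERBB4 bind the neuregulins, ERBB3 has little kinase activity of its own, and ERBB2 has no known ligand and acts as a partner for the others. In the brain, EGFR marks activated neural stem cells and glial progenitors, ERBB3 is found in the oligodendrocyte lineage, ERBB4 is abundant in interneurons, and neuregulins are made largely by neurons. LRIG1 is a membrane protein that promotes the degradation of ErbB receptors, and LRIG3 is its relative with a less settled effect.

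After filters on genes, fragments and mitochondrial reads and removal of called doublets, 8359 nuclei of Foxr2 p53LOF (median 5527 UMIs) and 8316 of Foxr2 alone replicate 1 (median 3637 UMIs) were kept, and these libraries shared 94 barcodes. The nuclei were clustered with the 9 genes left out of the variable genes, and clusters were named from fixed marker genes. In Foxr2 p53LOF 2 glia-like clusters carried the vector: 29.4% of 1257 astrocyte-like nuclei (exact binomial 95% interval 26.9% to 32.0%) and 27.5% of 1194 nuclei like committed oligodendrocyte precursors (COP-like; 24.96% to 30.1%) had an ATAC count in a peak on a vector, against 1.29% of immune-like nuclei (0.807% to 1.94%). These clusters are called tumor glia here. All 8 astrocyte markers and all 6 COP markers passed in the cluster named for them, all 8 oligodendrocyte markers passed in the COP-like cluster as well (4881 CPM in sum against 2354 for the COP markers), and GFP RNA was at 641 CPM (UMIs of a gene summed over a class and scaled to 1000000 UMIs of that class) in tumor glia against 190 in host glia and 217 in immune-like nuclei. The p53 edit was not checked, since counts per gene do not read it. Host glia of that library were 1526 oligodendrocyte-like and 94 OPC-like (oligodendrocyte precursor-like) nuclei, of which 0.864% had a vector count (0.473% to 1.45%), and no cluster named astrocyte-like in it lacked the vector signal. The COP marker Gpr17 was lower in the COP-like cluster than in these OPC-like nuclei (22.4 against 139 CPM). The COP markers Bmp4 (56.1 against 3.10) and Enpp6 (388 against 24.8) were higher. An unnamed cluster of 228 nuclei that mixed T cell genes with astrocyte markers (8 markers summing to 5625 CPM, against 2817 CPM in the astrocyte-like tumor glia) did not meet the vector rule by ATAC (2.63%, 0.972% to 5.64%) but had 612 CPM of GFP RNA, and it was left out of host glia. In Foxr2 alone no peak lay on a vector, so the signal was read from GFP UMIs after thinning each nucleus to 1000 UMIs. It was found in 8.22% of astrocyte-like nuclei (5.79% to 11.2%) and in 1.79% of the immune-like nuclei that the rule was read against. Those were the immune-like cluster of 416 nuclei and 8 nuclei of another immune-like cluster. In the cluster of 416 alone, from a separate random draw of UMIs, the share was 2.57% (1.04% to 5.23%). The astrocyte-like share was 4.60 times the 1.79% where the rule asks for 3, and is fewer times the 2.57%. In the tumor glia of Foxr2 p53LOF it was 23.0 and 21.4 times, so these 427 astrocyte-like nuclei of Foxr2 alone are given by name and not as host glia. They formed a cluster apart from the astrocyte-like tumor glia. Their cluster held 5 nuclei of Foxr2 p53LOF, and that of the astrocyte-like tumor glia held 1257 of Foxr2 p53LOF and 2 of Foxr2 alone. The host glia of Foxr2 alone were then 165 OPC-like nuclei, with a GFP UMI in 3.64% after thinning (1.35% to 7.75%), an interval that overlaps those of the immune-like and the astrocyte-like nuclei, and with 96.4 CPM of GFP RNA against 20.8 in immune-like and 151 in astrocyte-like nuclei. RNA levels below are CPM with exact Poisson 95% intervals. Since counts of 1 library per genotype were used, no test across samples was made, and all intervals cover counting error only. A gene was called higher or lower where the ratio of CPM was at least 2-fold, with at least 10 CPM in 1 of the classes.

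**Figure D1:**
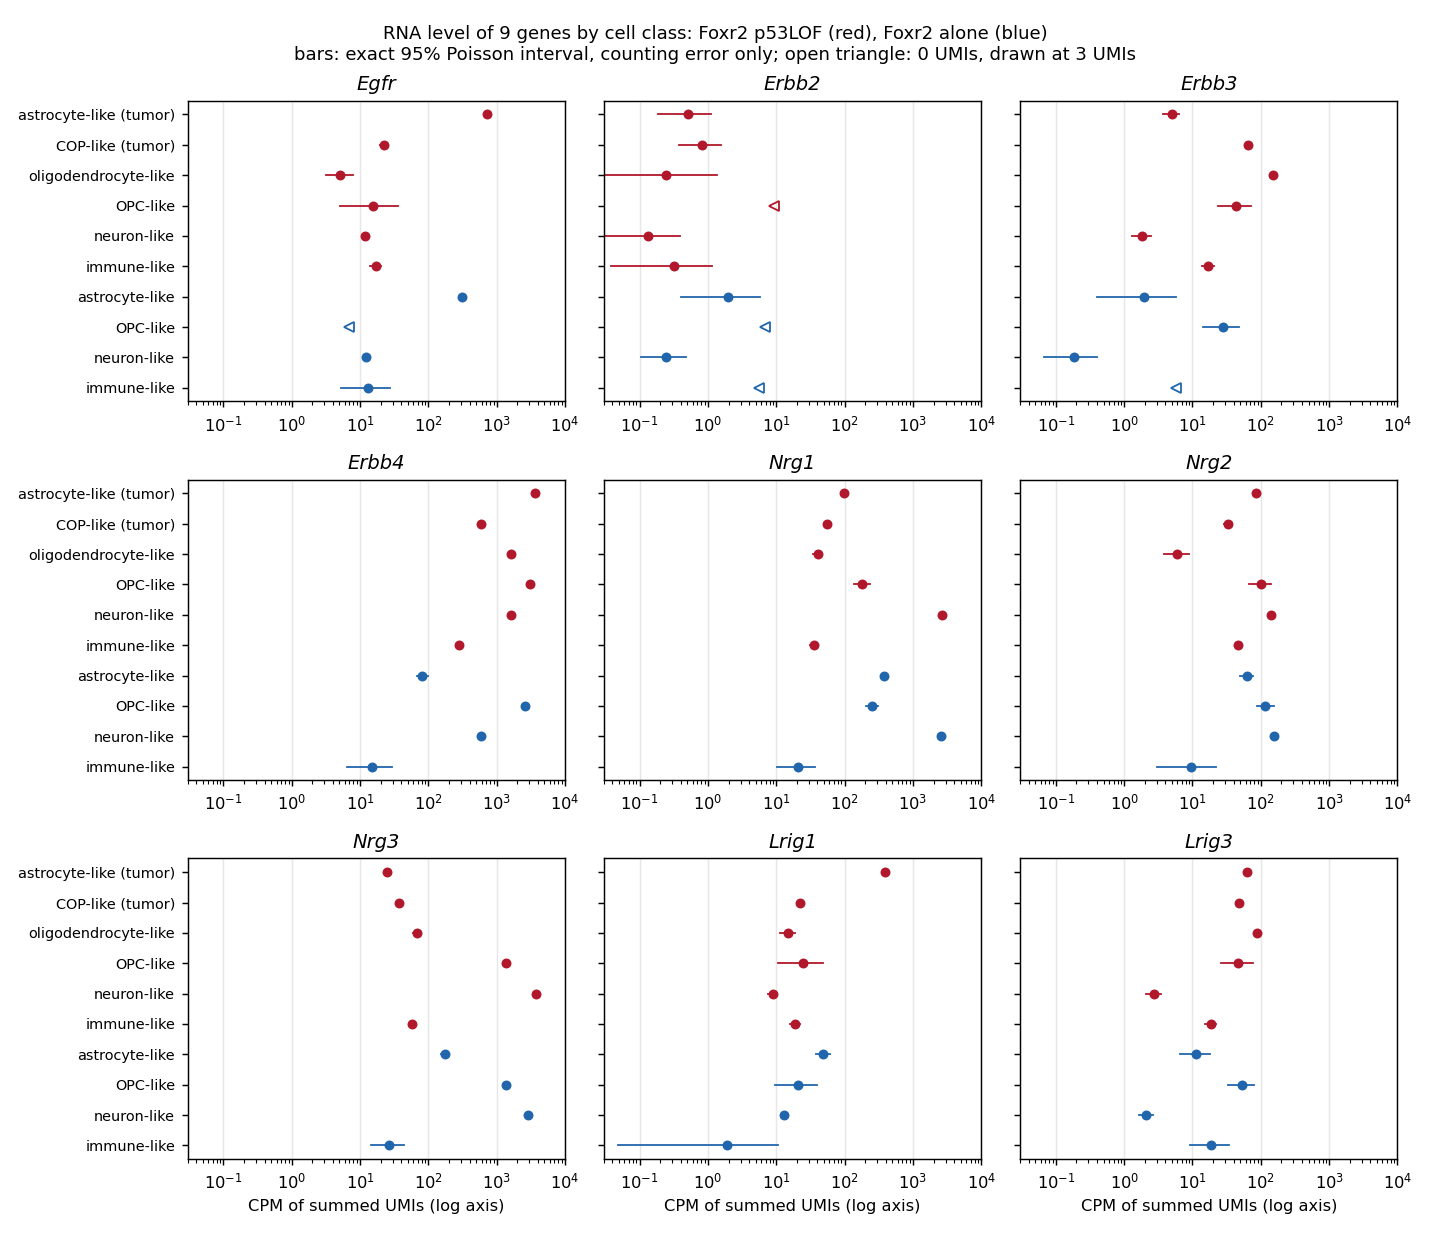
RNA levels of the 9 genes (CPM of summed UMIs, log axis) in each class of Foxr2 p53LOF (red) and Foxr2 alone (blue), with exact 95% Poisson intervals as bars and open triangles at 3 UMIs where a class had 0 UMIs. Egfr and Lrig1 stood at 716 and 392 CPM in the astrocyte-like tumor glia, above every other class drawn, while Nrg1 and Nrg3 were highest in neuron-like nuclei.

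The promoters of 3 genes and an intronic peak of each of 2 are printed first because RNA and accessibility are set against each other at these places. Each intronic peak was picked as the one with the most counts in astrocyte-like tumor glia, among peaks of its gene more than 1 kb from the start. All are mm10 (GRCm38), 5′ to 3′ on the strand of the gene, and capitals mark matches to the motifs searched. Sequences of the 250 bases before the gene start were found in RefSeq for 6 of the 9 genes. The Egfr promoter (chr11:16751953-16752202, plus strand), the Lrig1 promoter (chr6:94700146-94700395, minus strand) and the Nrg3 promoter (chr14:39473089-39473338, minus strand) read as follows, with the central 300 bases of the peak in Egfr 79.9 kb into the gene (chr11:16831988-16832287) and of the peak in Lrig1 68.7 kb into the gene (chr6:94631324-94631623), neither of which overlaps an exon.
Egfr promoter: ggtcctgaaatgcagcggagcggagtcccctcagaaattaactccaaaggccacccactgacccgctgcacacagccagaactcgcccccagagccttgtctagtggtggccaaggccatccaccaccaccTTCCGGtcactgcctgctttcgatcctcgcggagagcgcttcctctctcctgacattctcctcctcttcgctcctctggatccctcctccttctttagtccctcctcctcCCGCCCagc
Lrig1 promoter: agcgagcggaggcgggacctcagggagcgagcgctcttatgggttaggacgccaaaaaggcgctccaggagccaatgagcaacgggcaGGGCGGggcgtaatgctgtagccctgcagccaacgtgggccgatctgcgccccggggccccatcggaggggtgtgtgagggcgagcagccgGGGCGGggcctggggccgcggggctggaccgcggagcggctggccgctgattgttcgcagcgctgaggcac
Nrg3 promoter: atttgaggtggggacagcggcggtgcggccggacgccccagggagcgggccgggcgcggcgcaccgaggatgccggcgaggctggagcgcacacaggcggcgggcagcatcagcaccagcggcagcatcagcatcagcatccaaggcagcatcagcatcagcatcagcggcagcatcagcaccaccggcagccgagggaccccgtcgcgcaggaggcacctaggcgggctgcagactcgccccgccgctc
Egfr intronic peak: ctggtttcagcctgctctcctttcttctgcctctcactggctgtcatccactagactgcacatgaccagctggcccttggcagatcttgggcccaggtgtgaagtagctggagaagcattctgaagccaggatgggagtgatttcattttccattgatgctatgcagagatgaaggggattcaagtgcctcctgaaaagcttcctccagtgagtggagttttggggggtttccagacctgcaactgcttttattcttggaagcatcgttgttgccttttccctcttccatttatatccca
Lrig1 intronic peak: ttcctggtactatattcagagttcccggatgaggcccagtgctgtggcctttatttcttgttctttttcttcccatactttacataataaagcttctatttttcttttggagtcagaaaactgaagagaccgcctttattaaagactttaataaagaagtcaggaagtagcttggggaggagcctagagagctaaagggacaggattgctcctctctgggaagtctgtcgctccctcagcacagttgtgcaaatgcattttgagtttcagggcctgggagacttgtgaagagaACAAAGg
The motifs searched on both strands were the GC box GGGCGG, the ETS core CCGGAA, the AP-1 site TGANTCA, the SOX site ACAAAG and the NFI palindrome, TTGGC and GCCAA with 5 bases between. The Egfr promoter held 1 ETS core and 1 GC box, both on the opposite strand, and the Lrig1 promoter held 2 GC boxes. The Lrig1 peak held 1 SOX site, and neither the Nrg3 promoter nor the Egfr peak held any of the 5 motifs. These letters are common: the GC box was in 32.7% of 32851 promoter windows of the same length and the ETS core in 12.03%, and the SOX site was in 26.4% of 112883 peak windows. A match is a description of the letters and not of a bound factor.

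Egfr RNA was found mostly in astrocyte-like nuclei. In Foxr2 p53LOF it reached 716 CPM in astrocyte-like tumor glia (701 to 731, 8418 UMIs in 1257 nuclei), and it was 22.2 CPM in COP-like tumor glia (19.5 to 25.1), 5.16 in oligodendrocyte-like host glia (3.19 to 7.89) and 15.5 in OPC-like host glia (5.03 to 36.1). Neuron-like nuclei were at 11.9 CPM (10.6 to 13.4) and immune-like nuclei at 16.9 (13.8 to 20.4). The intervals of the COP-like, OPC-like and immune-like nuclei overlapped, and the astrocyte-like level stood apart from them all. After thinning to 1000 UMIs, 40.0% of astrocyte-like tumor nuclei held an Egfr UMI (37.2% to 42.7%), against 2.23% of COP-like and 0.892% of immune-like nuclei. The immune-like share is given for reference, and the level of free RNA was not measured. Without thinning the shares were 78.9%, 6.87% and 2.86%, at median depths of 8040, 7582 and 2699 UMIs.

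Tumor glia as a whole had 380 CPM of Egfr (372 to 388) and host glia of the same library 5.92 (3.87 to 8.67), a log2 ratio of 6.00 (5.45 to 6.62). Against neuron-like nuclei the log2 ratio was 4.99 (4.82 to 5.17), with a range of 4.68 to 8.14 over 7 alternative settings. The host glia of Foxr2 alone, OPC-like nuclei, had 0 Egfr UMIs, so the level in tumor glia was at least 55.2-fold higher against a limit of 3 UMIs summed over that class. With at least 1000 genes and 1000 peak counts per nucleus the log2 ratio across the libraries was 0.90 and not called. That setting also redid the clusters and the vector rule, so its host glia need not be the same class of nuclei. The part of depth and of class makeup in that value was not tested. The astrocyte-like nuclei of Foxr2 alone also held Egfr, at 312 CPM (285 to 342), 2.29-fold under the astrocyte-like tumor glia (log2 ratio 1.20, 1.06 to 1.33). When those astrocyte-like nuclei were counted as host glia, the log2 ratio of tumor over host glia across the libraries was 0.65. When the unnamed cluster of T cell genes and astrocyte markers was counted as host glia of Foxr2 p53LOF, the log2 ratio within that library was 3.44. The Egfr ratio was thus smaller in these regroupings, which counted nuclei with astrocyte markers as host glia. The part of the astrocyte-like share in the difference was not tested.

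Egfr RNA was also read in the clusters outside the named glial classes. In Foxr2 alone, 357 of the 403 Egfr UMIs of neuron-like nuclei came from 1 cluster of 324 nuclei led by the interneuron genes Vip, Sst, Npy and Lhx6, at 136 CPM (122 to 151). The clusters led by Penk and Adora2a, markers of striatal projection neurons, and by Slc17a7, a vesicular glutamate transporter, were at 0.767 and 0.881 CPM. In Foxr2 p53LOF the unnamed cluster of T cell genes and astrocyte markers had 172 CPM (146 to 200), and an unnamed vascular cluster of 75 nuclei had 116 CPM (78.8 to 165). The unnamed clusters entered no main comparison.

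Erbb2 RNA was at the limit of detection in every class. Tumor glia of Foxr2 p53LOF had 15 UMIs among 22814583, or 0.657 CPM (0.368 to 1.08), and the host glia had 1 UMI. The neuron-like and immune-like nuclei had 3 and 2 UMIs. No RNA comparison of Erbb2 passed the minimum of 10 CPM, so no fold is given. Its promoter had a peak in all 3 libraries.

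Erbb3 RNA followed the oligodendrocyte lineage. It was 153 CPM in oligodendrocyte-like host glia (141 to 165), 64.7 in COP-like tumor glia (60.0 to 69.6) and 43.3 in OPC-like host glia (23.7 to 72.7). Astrocyte-like tumor glia stood at 4.93 CPM (3.74 to 6.38), under the immune-like level of 16.9 (13.8 to 20.4), and neuron-like nuclei at 1.80 (1.29 to 2.44). The COP-like and OPC-like intervals overlapped. Tumor glia had less Erbb3 than host glia by a log2 ratio of -2.09 (-2.25 to -1.94) and more than neuron-like nuclei (4.24, 3.78 to 4.73). With the 94 OPC-like nuclei as the only host glia the log2 ratio was -0.36, so the lower call rested on the oligodendrocyte-like nuclei. As UMIs per nucleus, without scaling by the total, it was -0.31, against a median of 2.16 over all genes.

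Erbb4 was found in both the tumor and the host classes of Foxr2 p53LOF. Its level was 3615 CPM in astrocyte-like tumor glia (3581 to 3650), 3111 in OPC-like (2922 to 3310) and 1636 in oligodendrocyte-like host glia (1597 to 1676), 1624 in neuron-like nuclei (1608 to 1641) and 593 in COP-like tumor glia (579 to 608). The oligodendrocyte-like and neuron-like intervals overlapped. Even the immune-like nuclei had 279 CPM (266 to 292), and 14.1% of them held an Erbb4 UMI after thinning, against 26.7% of COP-like and 85.8% of astrocyte-like tumor nuclei. Over all tumor glia the level was 2151 CPM against 1745 in host glia, a log2 ratio of 0.30 (0.27 to 0.34) that was not called; as UMIs per nucleus it was 2.08, against a median of 2.16 over all genes. In Foxr2 alone the astrocyte-like nuclei, a separate cluster, were low, at 81.5 CPM (67.8 to 97.2), or 44.4-fold under the astrocyte-like tumor glia, while the OPC-like nuclei had 2554 CPM (2406 to 2709).

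Among neuron-like nuclei Erbb4 differed by cluster. In Foxr2 p53LOF the cluster of 130 nuclei led by the dopamine genes Th and Slc6a3 had 4199 CPM and the cluster of 1855 nuclei led by Glra1 and Slc17a6 had 1343. In Foxr2 alone the Vip, Sst and Npy cluster had 4565 CPM and the Tac1 and Drd3 cluster 2181, while the Penk and Adora2a cluster had 158 and the Slc17a7 cluster 51.4. Neuron-like nuclei of Foxr2 p53LOF had more Erbb4 than those of Foxr2 alone (log2 ratio 1.46, 1.43 to 1.48), the only one of 6 genes measured that was called, against 13.6% of all genes called higher and 19% lower. The neuron-like class of Foxr2 alone also held a cluster of 391 nuclei led by Trabd2b and Ccn2, with 12.8 CPM of Erbb4, and 29 nuclei of the Glra1 cluster, the only cluster that entered the class in both libraries. The part of this difference in makeup in the Erbb4 ratio was not tested.

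Of the ligands, Nrg1 and Nrg3 were neuronal. Nrg1, whose product supports Schwann cells and interneurons, was highest in neuron-like nuclei, at 2678 CPM (2657 to 2699) with p53 loss and 2611 CPM (2594 to 2628) in Foxr2 alone. Tumor glia had 77.0 CPM (73.5 to 80.7), host glia 50.8 (44.3 to 57.9) and immune-like nuclei 35.1 (30.7 to 40.1). After thinning, Nrg1 UMIs were in 6.02% of tumor glia, 5.04% of host glia and 4.52% of immune-like nuclei, whose intervals overlap, while in CPM the tumor glia stood above the immune-like level with separate intervals. By cluster Nrg1 was 98.0 CPM in astrocyte-like (92.4 to 103.8) and 54.7 in COP-like tumor glia (50.5 to 59.3), 40.3 in oligodendrocyte-like (34.4 to 46.9) and 183 in OPC-like host glia (139 to 236). The log2 ratio of tumor glia over neuron-like nuclei was -5.12 (-5.19 to -5.05), and over host glia 0.60 (0.40 to 0.81), not called, with -1.60 without doublet removal and -1.25 with OPC-like nuclei as the only host glia. Astrocyte-like nuclei of Foxr2 alone had 381 CPM (351 to 414) with a UMI in 8.92% of nuclei after thinning, and the 8 neuron markers summed to 1528 CPM there against 321 in the astrocyte-like tumor glia. The part of neuronal RNA in that value was not tested.

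Nrg3, a neuron-enriched ligand of ERBB4, was likewise highest in neuron-like nuclei, at 3816 CPM (3790 to 3841) with p53 loss and 2904 CPM (2886 to 2923) in Foxr2 alone. OPC-like nuclei held it as well, at 1350 CPM (1226 to 1483) in Foxr2 p53LOF and 1379 (1271 to 1494) in Foxr2 alone, intervals that overlap. Astrocyte-like and COP-like tumor glia had 24.8 and 37.5 CPM, under the 57.4 of immune-like nuclei (51.6 to 63.6). Oligodendrocyte-like host glia had 67.3 CPM (59.6 to 75.8), an interval that overlaps the immune-like one, and 436 of the 710 Nrg3 UMIs of host glia came from the 94 OPC-like nuclei. Tumor glia were lower than host glia as a whole (log2 ratio -2.38, -2.54 to -2.23; -0.61 as UMIs per nucleus, where the median of all genes was 2.16) and than neuron-like nuclei (-6.95, -7.05 to -6.84). Against the OPC-like host glia of Foxr2 alone the log2 ratio was -5.48 (-5.64 to -5.32). Over the alternative settings the Nrg3 ratio ranged from -7.25 to -3.82 against neuron-like nuclei and from -5.48 to -2.36 against host glia of Foxr2 alone.

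Nrg2 was spread more evenly. It was 143 CPM in neuron-like nuclei (138 to 148), 99.1 in OPC-like host glia (67.8 to 140), 84.7 in astrocyte-like (79.5 to 90.1) and 32.7 in COP-like tumor glia (29.4 to 36.2), 46.8 in immune-like nuclei (41.6 to 52.4) and 5.90 in oligodendrocyte-like host glia (3.78 to 8.77). The OPC-like interval overlapped that of the neuron-like and the astrocyte-like nuclei. Tumor glia were higher than host glia by a log2 ratio of 2.22 (1.84 to 2.63), and with OPC-like nuclei as the only host glia the sign turned, to -0.74. Without doublet removal it was 0.85 and not called.

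Lrig1 RNA was highest where Egfr was highest. In Foxr2 p53LOF it was 392 CPM in astrocyte-like tumor glia (380 to 403), 22.5 in COP-like tumor glia (19.8 to 25.5), 14.7 in oligodendrocyte-like (11.2 to 19.0) and 24.8 in OPC-like host glia (10.7 to 48.8), 8.81 in neuron-like (7.64 to 10.1) and 18.9 in immune-like nuclei (15.7 to 22.6). Other than the astrocyte-like and neuron-like values, all these intervals overlapped that of the immune-like nuclei. The thinned share was 30.1% in astrocyte-like tumor nuclei (27.6% to 32.8%) against 1.43% in immune-like nuclei (0.917% to 2.12%). Tumor glia over host glia had a log2 ratio of 3.78 (3.44 to 4.15), tumor glia over neuron-like nuclei 4.59 (4.39 to 4.80) and tumor glia over the OPC-like host glia of Foxr2 alone 3.36 (2.44 to 4.49). With the unnamed cluster of T cell genes and astrocyte markers counted as host glia of Foxr2 p53LOF, the first of these was 1.77. The astrocyte-like nuclei of Foxr2 alone were lower, at 48.6 CPM (38.2 to 61.1), or 8.05-fold under the astrocyte-like tumor glia (log2 ratio 3.01, 2.68 to 3.36), a wider gap than that of Egfr. The unnamed cluster with T cell genes and astrocyte markers had 281 CPM (249 to 318). The antisense neighbour Slc25a26 overlaps Lrig1, as Egfros overlaps Egfr, Nrg3os, Gm20641 and Gm20642 overlap Nrg3, 4930471G03Rik overlaps Nrg2 and Mien1 overlaps Erbb2, and the strand used in counting is not given in the sources used here. Gm16076 overlaps Erbb4 on the same strand, where strand cannot tell their reads apart.

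Lrig3 was found in tumor and host glia and hardly in neuron-like nuclei. It was 87.9 CPM in oligodendrocyte-like host glia (79.1 to 97.5), 63.8 in astrocyte-like (59.3 to 68.5) and 47.4 in COP-like tumor glia (43.4 to 51.6), 46.4 in OPC-like host glia (26.0 to 76.6), 18.6 in immune-like nuclei (15.4 to 22.3) and 2.72 in neuron-like nuclei (2.08 to 3.49). Tumor glia over host glia had a log2 ratio of -0.60 (-0.77 to -0.43), not called, and over neuron-like nuclei 4.36 (3.99 to 4.75).

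Counted over the genes, tumor glia over host glia of Foxr2 p53LOF gave 3 of the 8 genes measured higher (Egfr, Nrg2 and Lrig1) and 2 lower (Erbb3 and Nrg3), where 26.5% of all 10490 genes measured were called higher and 10.6% lower. The median log2 ratio was 0.45 over the 8 genes and 0.38 over all genes. Over neuron-like nuclei 4 genes were higher (Egfr, Erbb3, Lrig1 and Lrig3; 28.7% of all genes) and 3 lower (Nrg1, Nrg2 and Nrg3; 17.4%), with medians of 2.32 and 0.38. Over the OPC-like host glia of Foxr2 alone 2 were higher (Egfr and Lrig1; 22.5%) and 2 lower (Nrg1 and Nrg3; 23.1%). The Egfr call there was lost with at least 1000 genes and 1000 peak counts (0.90, with clusters and vector rule redone). It was also lost with the astrocyte-like nuclei of Foxr2 alone counted as host glia (0.65). The Nrg1 ratio (-1.71) was not kept at resolution 1.0 (0.22), as UMIs per nucleus (0.10) or with the unnamed Ptgds and Mal cluster of Foxr2 alone, which carried oligodendrocyte markers, counted as host glia (0.73). Between the astrocyte-like classes, which were separate clusters, 4 of 7 genes were higher in Foxr2 p53LOF (Egfr, Erbb4, Lrig1 and Lrig3, with 24.1% of all genes) and 2 lower (Nrg1 and Nrg3, with 28%). These classes also differed in their markers. The 8 astrocyte markers summed to 2817 CPM in the astrocyte-like tumor glia and 10962 in the astrocyte-like nuclei of Foxr2 alone. The 5 OPC markers summed to 460 and 106 CPM, and the 8 neuron markers to 321 and 1528. The part of cell state in the calls between these classes was not tested. The part of neuronal RNA in the Nrg1 and Nrg3 calls was not tested. Nuclei of tumor glia had more UMIs than those of host glia, at medians of 7885 and 2489.5 UMIs. Scored as UMIs per nucleus, without scaling by the total, 6 of the 8 genes were higher in tumor glia and 0 lower, where 86.9% of all genes were higher and 2.76% lower. That scoring moved the median log2 ratio of all genes from 0.38 to 2.16 and that of the 8 genes from 0.45 to 2.23.

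**Figure D2:**
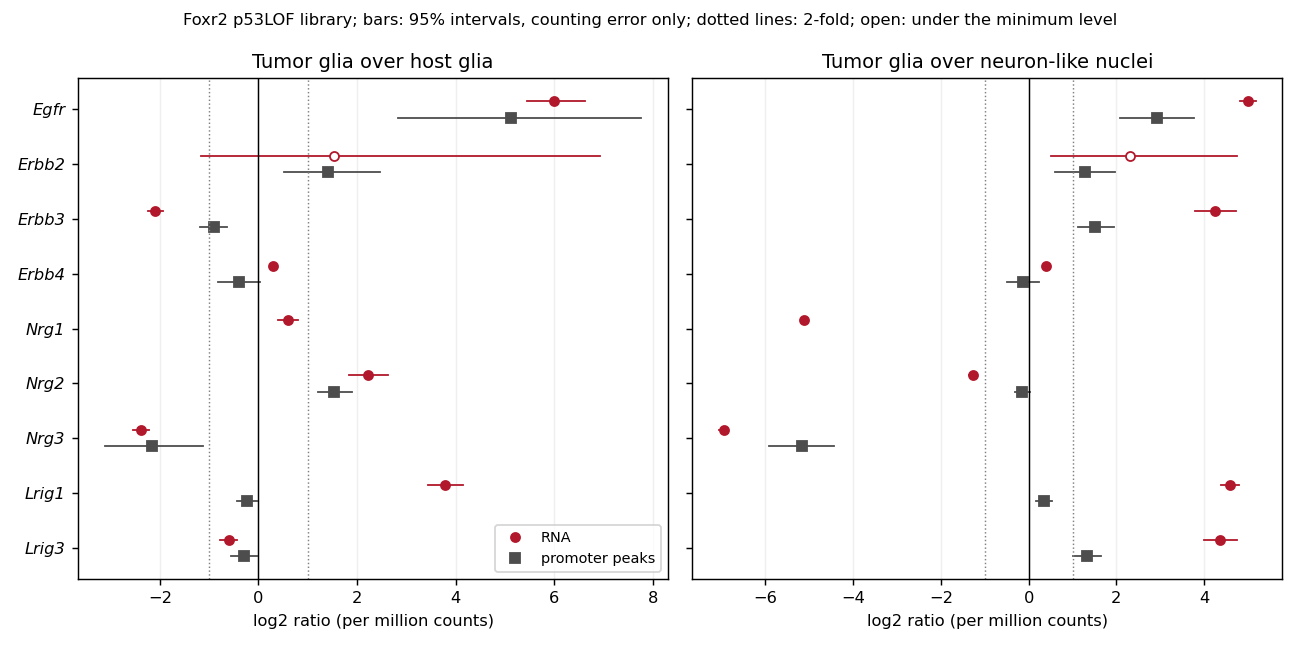
Log2 ratios of CPM in tumor glia over host glia (left) and over neuron-like nuclei (right) in Foxr2 p53LOF RNA (red circles) and promoter peaks (grey squares), with 95% intervals as bars, 2-fold as dotted lines and open symbols under the minimum level. Egfr lay past 2-fold in RNA and at its promoter on both sides, and Lrig1 in RNA only (3.78 and 4.59 in RNA, -0.24 and 0.35 at the promoter).

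The tumor glia clusters differed from each other in 5 of the 8 genes. Astrocyte-like over COP-like tumor glia gave log2 ratios of 5.01 for Egfr (4.83 to 5.20), 4.12 for Lrig1 (3.94 to 4.31), 2.61 for Erbb4 (2.57 to 2.64) and 1.37 for Nrg2 (1.20 to 1.55), and -3.71 for Erbb3 (-4.13 to -3.33). So 4 genes were higher and 1 lower, where 10.4% of all genes were higher and 9.38% lower. Both clusters carried the vector in like shares of nuclei, and their median depths were 8040 and 7582 UMIs.

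Finer clustering (resolution 1.0) gave 3 astrocyte-like clusters in Foxr2 p53LOF. The largest (964 nuclei, 30.3% with a vector count) had 777 CPM of Egfr and 455 of Lrig1, and a cluster of 108 nuclei led by mitotic genes such as Kif11 (34.3%) had 904 CPM of Egfr and 230 of Lrig1. The cluster with the lowest vector share (139 nuclei, 7.19%, interval 3.50% to 12.8%) had 232 CPM of Egfr and 333 of Lrig1. Its GFP RNA was the highest of the 3, at 789 CPM against 575 in the largest and 552 in the mitotic cluster, and it met the vector rule. Of its nuclei 123 came from the unnamed cluster above, and 13 from the astrocyte-like tumor glia, and it was led by astrocyte genes such as Gja1 and Agt. Between the largest and this cluster the log2 ratio was 1.75 for Egfr (1.55 to 1.95) and 0.45 for Lrig1 (0.28 to 0.62). Egfr was thus lower in the cluster with the lowest vector share and the highest GFP RNA, and Lrig1 was within 2-fold. Within the astrocyte-like tumor glia the 370 nuclei with a vector count had little more Egfr than the 887 without (log2 ratio 0.16, 0.09 to 0.23), and little more Lrig1 (0.24, 0.15 to 0.32). A nucleus without a vector count can still carry the vector, since ATAC counts are sparse. Nuclei with a UMI of the proliferation genes Mki67 or Top2a had slightly less of both in this cluster (-0.27 for Egfr and -0.36 for Lrig1).

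Receptor and inhibitor were found in the same nuclei. Of 1254 astrocyte-like tumor nuclei with at least 1000 UMIs, 79.1% had an Egfr UMI, 71.6% a Lrig1 UMI and 60.4% both. Lrig1 was found in 76.4% of the nuclei with Egfr and in 53.4% of those without. The nuclei with Egfr were deeper, with a median of 8444 UMIs against 6435.5, and the part of depth in this was not tested. These shares were read without thinning. Of 1120 COP-like tumor nuclei 2.23% had both, with Lrig1 in 31.25% of those with Egfr and in 11.5% of those without.

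Promoter accessibility set Egfr and Lrig1 apart. The Egfr promoter peak, over the sequence printed above, had 21.7 peak CPM (counts scaled to the total peak counts of the class) in astrocyte-like tumor glia (18.5 to 25.4), 2.71 in COP-like tumor glia (1.65 to 4.18), 0.247 in oligodendrocyte-like host glia (0.00625 to 1.37) and 1.59 in neuron-like nuclei (0.901 to 2.77). The astrocyte-like nuclei of Foxr2 alone had 19.5 (13.6 to 27.1), counted in the peaks of that library. The promoter thus stood open in the classes that had the RNA. The Lrig1 promoter had 51.9 in astrocyte-like tumor glia (46.8 to 57.5), 49.0 in COP-like tumor glia (44.1 to 54.3), 59.1 in oligodendrocyte-like host glia (52.0 to 67.2) and 39.6 in neuron-like nuclei (35.5 to 44.1). It was open in classes with high and with low Lrig1 RNA, and lower in immune-like nuclei, at 15.8 (12.8 to 19.4).

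Tumor glia over host glia had promoter log2 ratios of 5.13 for Egfr (2.84 to 7.77, from 352 and 3 counts), 1.54 for Nrg2 (1.20 to 1.90; -0.31 with OPC-like nuclei as the only host glia), 1.41 for Erbb2 (0.51 to 2.46; 0.42 and not called with the unnamed cluster of T cell genes and astrocyte markers as host glia) and -2.16 for Nrg3 (-3.12 to -1.14). The values of Erbb3 (-0.91), Erbb4 (-0.39), Lrig3 (-0.30) and Lrig1 (-0.24) were within 2-fold. This made 3 of 8 promoters higher and 1 lower, where 23.9% of all promoters were higher and 3.95% lower. Over neuron-like nuclei 4 promoters were higher (Egfr 2.93, Erbb3 1.52, Lrig3 1.33 and Erbb2 1.28) and 1 lower (Nrg3, -5.17), where 11.7% of promoters were called in each direction. The Nrg3 promoter, printed above, had 40.8 peak CPM in neuron-like nuclei (36.7 to 45.4) and 37.0 in OPC-like host glia (18.5 to 66.1), intervals that overlap, and 1.13 in tumor glia (0.68 to 1.87) and 0.578 in immune-like nuclei (0.180 to 1.69), which overlap as well. Nrg1, which has several starts over 966 kb, had no peak at its outermost start in Foxr2 p53LOF or in Foxr2 alone replicate 2, and 1 in replicate 1. The Erbb4 and Nrg3 promoters had a peak in both libraries with counts and none in Foxr2 alone replicate 2. Replicate 2 had 1650 barcodes, against 10379 in Foxr2 p53LOF and 10096 in Foxr2 alone replicate 1. Peaks were called per library, so a missing peak in replicate 2 was not read as a closed promoter.

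Within the gene bodies and 50 kb upstream, single peaks of Egfr and Lrig1 were more open in astrocyte-like than in COP-like tumor glia. At least 2-fold higher were 11 of 13 Egfr peaks, 10 of 14 Lrig1 peaks (1 lower) and 12 of 26 Erbb4 peaks (2 lower), where 13.7% of all peaks were higher and 18.4% lower. Of 7 Erbb3 peaks 0 were higher and 3 lower. The Egfr peak printed above, 79.9 kb into the gene, had 21.1 peak CPM in astrocyte-like and 1.76 in COP-like tumor glia (log2 ratio 3.58, 2.77 to 4.53). The Lrig1 peak printed above, 68.7 kb into the gene, had 46.3 and 5.28 (3.13, 2.65 to 3.65), with 3.70 in oligodendrocyte-like host glia and 1.47 in neuron-like nuclei. Both peaks were picked for the most counts in astrocyte-like tumor glia, so a high level there follows from the choice. Over all its peaks, Lrig1 differed between these clusters in the gene body and upstream, and not by 2-fold at the promoter (log2 ratio 0.08, -0.13 to 0.30). Its upstream peaks were higher in astrocyte-like nuclei at -18.0 kb (2.59, 1.67 to 3.67) and -29.9 kb (1.04, -0.04 to 2.07). The upstream peak at -48.4 kb was lower (-1.01, -1.85 to -0.25). Over all promoters of the family 1 of 8 was higher in astrocyte-like than in COP-like tumor glia (Egfr, 3.00; 4.38% of all promoters) and 1 lower (Erbb3, -1.003; 5.35%). Peaks inside a gene are not tied to it by these data.

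**Figure D3:**
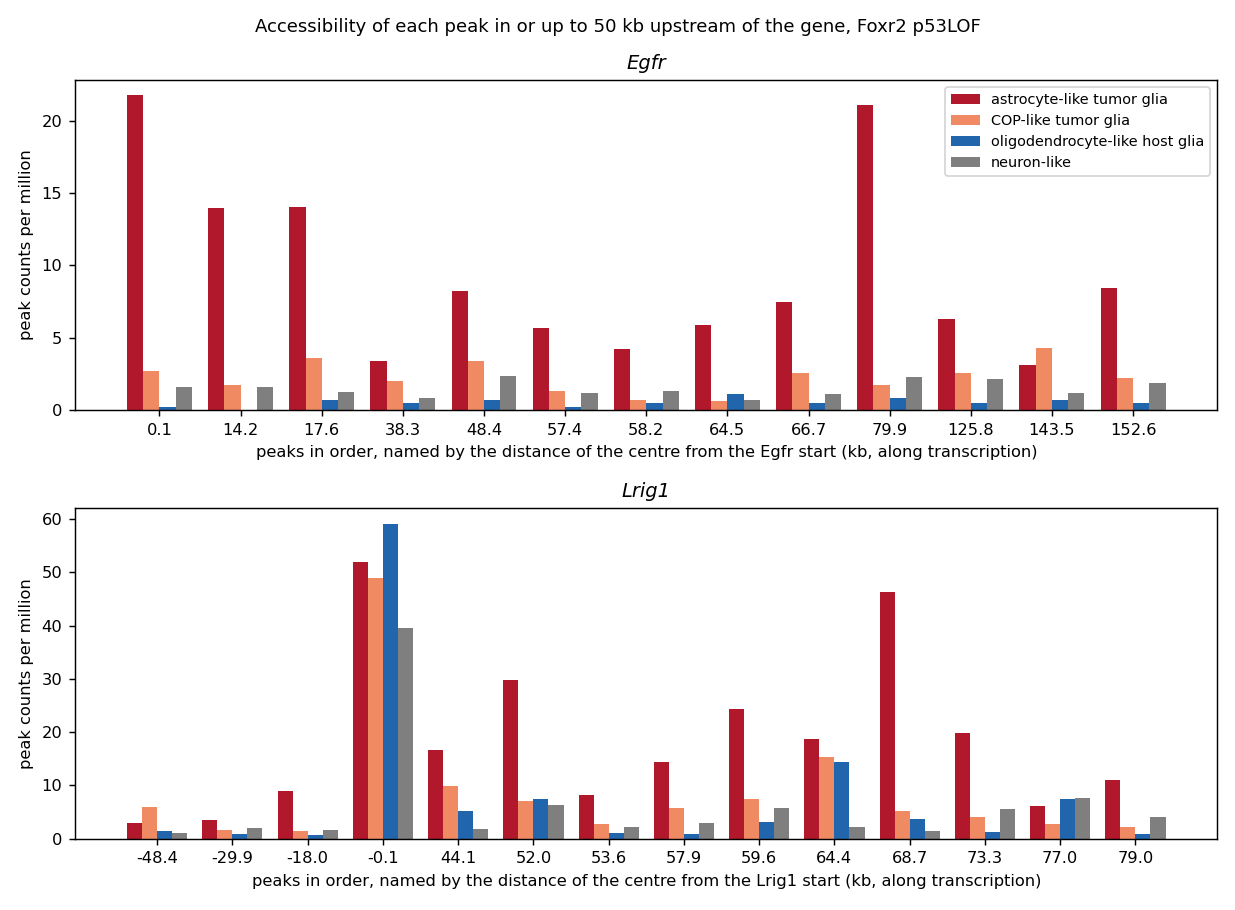
Accessibility (peak CPM, linear axis) of each peak in Egfr and Lrig1 or up to 50 kb upstream in Foxr2 p53LOF, in order along the gene and named by distance from its start, for astrocyte-like and COP-like tumor glia, oligodendrocyte-like host glia and neuron-like nuclei. The Egfr promoter stood at 21.7 in the astrocyte-like tumor glia and under 3 in the other classes drawn, whereas the Lrig1 promoter stood at 39.6 to 59.1 in all 4 classes and its peak 68.7 kb into the gene at 46.3 in the astrocyte-like tumor glia. That peak was picked for its counts in the astrocyte-like tumor glia.

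The other genes of the pathway were read from 5 lists of 45 genes, of which 40 passed the minimum. The lists were chosen with earlier results of these data known, so their counts are a description and not independent support. Tumor glia were higher than host glia for 19 and lower for 1, with a median log2 ratio of 0.94, where 26.5% of all genes were called higher and 10.6% lower. Of the ERK outputs and feedback genes 14 of 16 were higher and 0 lower, with a median log2 ratio of 2.17 against 0.38 over all genes. The most different were Egr1, an immediate early transcription factor (142.7 and 12.5 CPM in tumor and host glia, log2 ratio 3.51), Dusp4, a phosphatase of ERK (3.08), and Spry4, a feedback inhibitor of receptor tyrosine kinases (2.67). Over neuron-like nuclei all 16 were higher (28.7% of all genes), with a median of 3.06. Between the tumor clusters, where Egfr was 32.3-fold apart, the list had a median log2 ratio of 0.22 (astrocyte-like over COP-like), with 3 of 16 genes higher (Spry1, Etv4 and Etv5; 10.4% of all genes) and 1 lower (Fosl1; 9.38%). Egr1 was 140.2 CPM in the astrocyte-like and 145 in the COP-like cluster. The astrocyte-like nuclei of Foxr2 alone, with 312 CPM of Egfr, had 11.2 CPM of Egr1 and 1.31 of Spry4. Astrocyte-like tumor glia were higher than these nuclei for 15 of the 15 ERK genes measured, with a median log2 ratio of 2.55, where 24.1% of all genes were higher. The astrocyte-like classes of the libraries were separate clusters, in a clustering without integration. RNA does not read the activity of a receptor, and the part of Egfr in the levels of these genes was not tested.

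Of the other ErbB ligands, 4 of 8 passed the minimum. Hbegf, which binds EGFR and ERBB4, was higher in tumor glia than in host glia (69.6 and 5.01 CPM, log2 ratio 3.80, 3.19 to 4.47), and so was Areg, which binds EGFR (43.7 and 4.10 CPM, 3.41, 2.75 to 4.17). Tgfa was lower (23.3 and 69.2 CPM, -1.57, -1.78 to -1.36). The clusters differed again, with Hbegf at 117 CPM in astrocyte-like and 18.7 in COP-like tumor glia, and Areg at 21.3 and 67.5. Of the sheddases and partners 1 of 4 was higher (Rhbdf1, an inactive rhomboid that guides ADAM17, 3.05), of the adaptors 1 of 8 (Shc3, 3.63) and of the turnover genes and inhibitors 1 of 8 (the phosphatase Ptpn1, 1.36), with 0 lower in these lists. These counts stand against the 26.5% of all genes called higher and 10.6% called lower, so these 3 lists were not above the background. Lrig2, a further relative of LRIG1, was at 126 and 134 CPM in tumor and host glia.

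**Figure D4:**
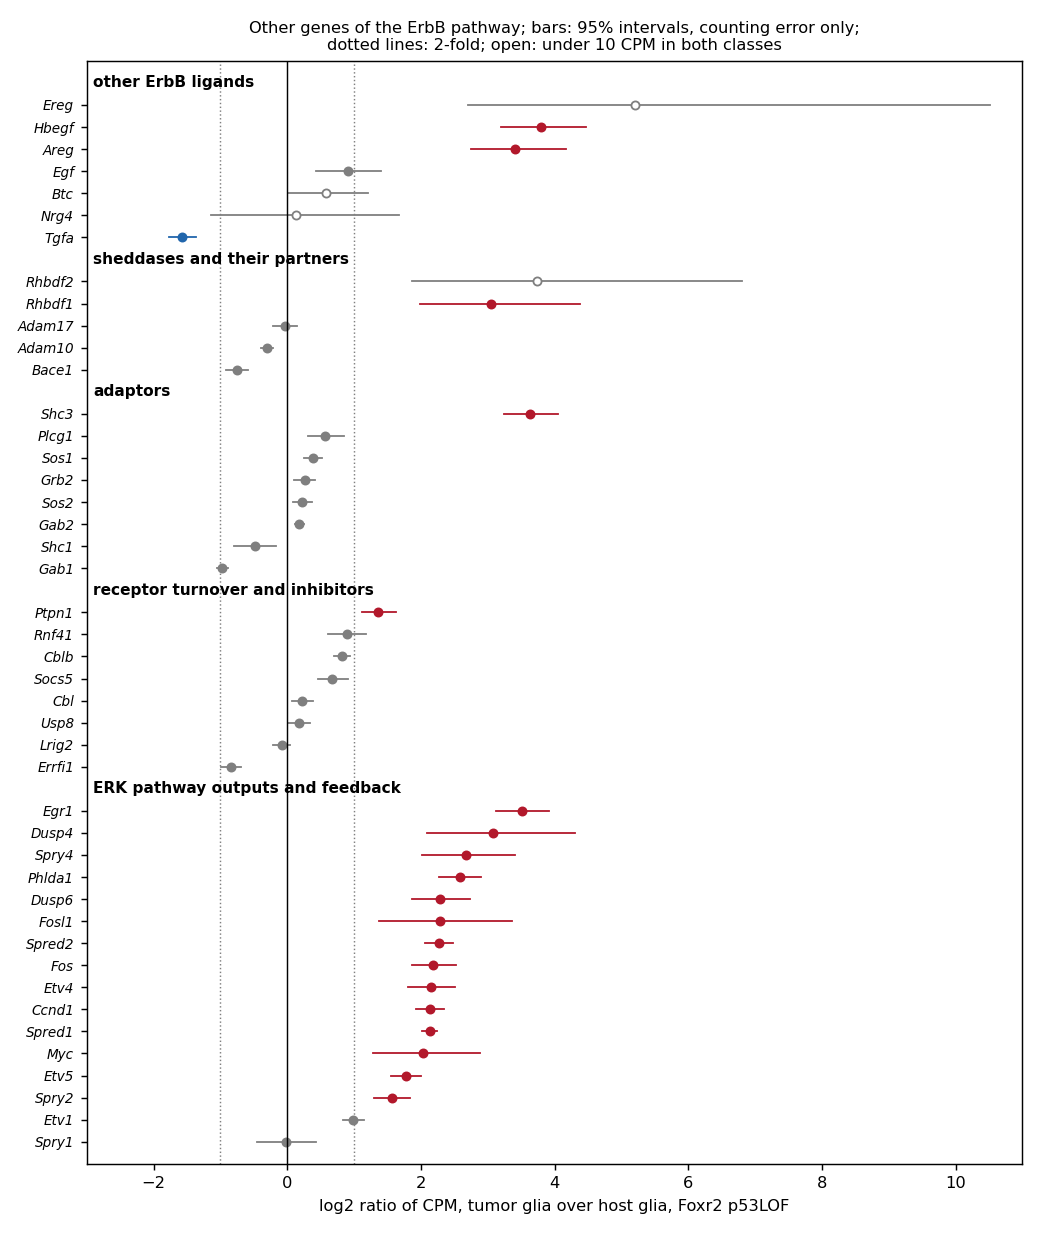
Log2 ratio of CPM, tumor glia over host glia of Foxr2 p53LOF, for the other genes of the ErbB pathway by list, with 95% intervals as bars, 2-fold as dotted lines, red for higher, blue for lower, grey for neither and open symbols under 10 CPM in both classes. The ERK outputs lie to the right, 14 of 16 past 2-fold, while the adaptors and turnover genes lie within 2-fold (-0.97 for Gab1 to 0.89 for Rnf41) apart from Shc3 and Ptpn1.

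The genes whose profile over the 10 class-by-library values was most like that of a member are given as a description, among 14143 genes and over points that share 2 libraries. For Egfr these were Ccdc80 (Pearson r = 0.93), 2610307P16Rik (0.91) and Gm5089 (0.91), and for Lrig1 they were Bmpr1a, a receptor of bone morphogenetic proteins (0.95), Rfx4, a transcription factor of neural progenitors and astrocytes (0.92), and Gm11266 (0.92). Erbb3 was most like Mcam (0.97), Gm16168 (0.97) and Ugt8a, an enzyme of myelin lipid synthesis (0.97). Erbb4 was most like Cdh6 (0.97), Qsox1 (0.96) and Aff2 (0.96), and Nrg3 like Gm44644 (0.99), Lrfn5 (0.99) and Gm26691 (0.99). The profiles of Egfr and Lrig1 had an r of 0.68 with each other. Egfr had the same rounded r with Erbb2, which was at the limit of detection in every class, and Nrg1 and Nrg3 had 0.86.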

How the data were processed

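RNA and ATAC counts were read for Foxr2 p53LOF replicate 1 and Foxr2 alone replicate 1. The authors deposited raw counts per gene and per peak for each nucleus, made with Cell Ranger ARC 2.0.0 on mm10 with vector sequences added, per the labels and the study's methods, and peaks were called per library. Total depth was 96929539 and 59719847 UMIs. Peak counts came mostly in steps of 2, the ends of 1 fragment, and their intervals were computed on fragments.

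Nuclei with at least 400 genes, 400 fragments and at most 5% mitochondrial counts were kept. Doublets were called with Scrublet and nuclei clustered by Leiden at resolution 0.5 (scanpy 1.11.5, leidenalg 0.10.2) on 30 components of 2000 variable genes, without the members, pathway genes, markers and vectors. A cluster was named from at least 3 markers. A glia-like cluster was tumor glia where its vector share was at least 3 times that of immune-like nuclei, with intervals apart. Counts were summed per class. Ratios carry exact conditional binomial intervals, shares Clopper-Pearson intervals (scipy 1.17.1), and a count of 0 was read as up to 3. Promoter peaks overlap 1 kb on either side of the gene start by GENCODE vM21 strand. The functions were tested on simulated data.

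Every member is named, the 3 most different called genes per pathway list and direction, and the 3 most similar profiles of 5 members. The members and lists were chosen with earlier results of these data known. Peaks were compared between classes within a library. Alternatives were resolution 1.0, no doublet removal, at least 1000 genes and 1000 peak counts, tumor glia by GFP RNA, mean over nuclei, no scaling, no minimum and a 2 kb window.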

Additional observations from a re-analysis of the deposited data

Results flagged for a closer look

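Erbb4 moved in opposite directions between astrocyte-like and neuron-like nuclei of the libraries. In Foxr2 p53LOF the astrocyte-like nuclei, which are tumor glia, were above the neuron-like nuclei, with a log2 ratio of 1.15. In Foxr2 alone they were below, with a log2 ratio of -2.86. The direction varied with the neuron-like cluster, and the neuron-like classes were made largely of different clusters. In Foxr2 p53LOF the Th and Slc6a3 cluster was above the astrocyte-like nuclei. In Foxr2 alone the Slc17a7 cluster and the Trabd2b and Ccn2 cluster were below them. The astrocyte-like classes were separate clusters as well, in a clustering without integration. The difference between the libraries was not tested, because each is a single lesion. Of 9631 genes measured in both, 242 (2.51%) were at least 2-fold apart in opposite directions.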

How the results depend on the processing

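No paired analysis was possible because counts of 1 library per genotype were used and the result comes from no test across samples. The number of genes past 2-fold in either direction stayed within 1.5 times in 43 of 45 comparisons with an alternative, and the numbers higher and lower each did so in 36. For tumor glia over host glia of Foxr2 p53LOF the exceptions were UMIs per nucleus in RNA (6 higher, 0 lower) and OPC-like host glia only at the promoters (2 higher, 2 lower), and over host glia of Foxr2 alone they were 5 settings, with 3 to 5 higher and 1 or 2 lower. The others were both in neuron-like nuclei of Foxr2 p53LOF over Foxr2 alone, where 2 genes were called without doublet removal (Erbb4 higher, and Egfr lower at -3.18) and 2 without the CPM minimum (Erbb4, and Erbb3 at 3.31). Of 391 log2 ratios of single genes under an alternative 38 changed sign, 33 of them where the gene was not called (such as Nrg1 over host glia of Foxr2 p53LOF, between -1.60 and 2.38, and Lrig3, between -0.61 and 1.17) and 5 where it was. Nrg1 in tumor glia over host glia of Foxr2 alone went to 0.22 at resolution 1.0, to 0.10 as UMIs per nucleus and to 0.73 with the Ptgds and Mal cluster of Foxr2 alone counted as host glia. Nrg2 in tumor glia over host glia went to -0.74 in RNA and -0.31 at the promoter with OPC-like host glia only. The alternatives on the makeup of host glia were chosen after seeing the data. Egfr in tumor glia over host glia of Foxr2 p53LOF ranged from 3.44 to 7.78 and Lrig1 from 1.77 to 5.56 over 9 settings, without a change of call. The upper ends of these ranges, and of those of Nrg1 and Lrig3 above, came from UMIs per nucleus. That setting shifts the ratio of every gene by the same amount, through the depth of the nuclei. Across the libraries Egfr was under 2-fold with at least 1000 genes and 1000 peak counts (0.90), where the host glia were set anew by redone clusters and vector rule. Tumor glia by GFP RNA gave no value for that comparison, since no host glia of Foxr2 alone were left. Erbb2 had at most 15 UMIs in a class of either library, too few for a ratio.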

Other observations

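An unnamed cluster of Foxr2 alone led by Ptgds and Mal (3017 nuclei, median 1171 UMIs) carried oligodendrocyte markers and did not enter host glia. Its levels were 640 CPM of Erbb4 (615 to 665), 30.3 of Erbb3 (25.1 to 36.3), 66.5 of Lrig3 (58.7 to 75.1) and 2.29 of Egfr (1.05 to 4.35). The oligodendrocyte-like host glia of Foxr2 p53LOF had more Erbb3 (log2 ratio 2.33, 2.05 to 2.63) and more Erbb4 (1.35, 1.29 to 1.42) than this cluster, which was much shallower. Nrg3 (1.52) and Lrig1 (1.27) were higher as well, and Nrg2 was lower (-1.14, 5.90 against 13.0 CPM).

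In COP-like tumor glia Egfr was low but higher in nuclei with a vector count (31.9 against 17.5 CPM, log2 ratio 0.86, 0.49 to 1.24) and in nuclei with a Mki67 or Top2a UMI (29.2 against 16.8 CPM, 0.80, 0.43 to 1.18). Lrig1 was also higher in nuclei with a Mki67 or Top2a UMI there (31.9 against 15.3 CPM, 1.06, 0.68 to 1.44), where in the astrocyte-like tumor glia it was slightly lower, and was at 23.5 against 22.1 CPM by vector count (0.09, -0.31 to 0.48). Both sets of nuclei were deeper than the rest, with medians of 9790.5 against 7013 UMIs and 10894.5 against 6641.5 UMIs, and the part of depth was not tested.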
